A study of Homo sapiens with 12 samples.

Results

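Transcripts of 10 chemokines and inflammatory cytokines were followed, those of *CXCL1*, *CXCL2*, *CXCL3*, *CXCL5*, *CXCL8*, *CCL2*, *CCL20*, *IL6*, *IL1B* and *LIF*. They were found in the count table by symbol, through the GENCODE v44 name of each Ensembl identifier, and make up 10 of the 58302 identifiers in the count table. The RNA came from MIB1-iKO cells, NCIH838 lung cancer cells carrying an integrated construct from which doxycycline (Dox) switches on Cas9 and a guide RNA against *MIB1*, isolated as single-cell clones. All 12 libraries carried this construct, and all cells spent 3 days in 50 nM LDN, an inhibitor of BMP type I receptors. MIB1 KO cells received 0.5 μg/mL Dox during those days and MIB1 WT cells did not. After replating, 10 ng/mL BMP4 was given to every culture for 24 hours, with LDN kept in the medium (BMP-off) or replaced by DMSO (BMP-on). There were 4 groups, MIB1 WT BMP-off, MIB1 WT BMP-on, MIB1 KO BMP-off and MIB1 KO BMP-on, each with 3 replicates. The labels do not say whether the replicates were separate cultures, so p values measure the spread between these libraries, which may be technical. Because every KO library and no WT library had Dox, loss of *MIB1* cannot be told apart from effects of Dox or Cas9 cutting. BMP-on and BMP-off differed only in LDN, and no group lacked BMP4. BMP signaling therefore cannot be told apart from other effects of LDN or of its removal. Below, a change with BMP, or a BMP response, means BMP-on against BMP-off.

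Chemokines are small secreted proteins that recruit leukocytes through G protein-coupled receptors. The CXC chemokines in this set attract neutrophils, *CCL2* attracts monocytes, and *CCL20* attracts lymphocytes and immature dendritic cells. *IL6* and *LIF* signal through receptors that share the chain encoded by *IL6ST* and activate STAT3, whereas *IL1B* is made as a precursor that inflammasomes cleave. Many of these genes are targets of NF-kB in epithelial and tumor cells.

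Total counts per library ranged from 19124010 to 29498000. *MIB1* lay between 144 and 176 CPM (counts scaled to library size by the TMM method of edgeR) in the 6 WT libraries and between 31.0 and 34.4 CPM in the 6 KO libraries. Of 6 genes chosen to check the BMP response (*ID1*, *ID2*, *ID3*, *SMAD6*, *SMAD7*, *BAMBI*), 6 were higher with BMP-on in WT cells and 6 in KO cells. Of all tested genes, 1.91% were higher in WT cells and 11.1% in KO cells. The WT call of *ID3* (0.61) held in 15 of 25 alternatives and in 4 of the 12 with a library left out, and was lost without any 1 of the 6 WT libraries, KO BMP-off replicate 1 or KO BMP-on replicate 3 (0.52 to 0.68, adjusted p = 0.051 to 0.114). Within groups, the deviation of a gene tended to follow its transcript GC content, most in KO BMP-off replicate 2 (Spearman's rho -0.63 across genes), KO BMP-off replicate 3 (0.61) and WT BMP-off replicate 1 (-0.45). Epithelial markers summed to between 262 and 370 CPM per library, although *KRT19* had 12 counts in all. *PTPRC*, the pan-leukocyte phosphatase, had 0 counts in every library, while *CD14*, another leukocyte marker, averaged 4.07 CPM.

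Of these genes, 5 form a chemokine cluster on chromosome 4 (GRCh38), *CXCL8*, *CXCL1*, *CXCL5*, *CXCL3* and *CXCL2*, between positions 73740519 and 74099196. The span is 359 kb. *CCL20* (chr2:227805739-227817564) and *IL1B* (chr2:112829751-112836816) lie on chromosome 2, *CCL2* (chr17:34255274-34257208) on chromosome 17, *IL6* (chr7:22725884-22732002) on chromosome 7 and *LIF* (chr22:30240453-30246759) on chromosome 22. Within the cluster, *CXCL1*, *CXCL2* and *CXCL3* are similar in sequence. Of the 50-base stretches in the *CXCL2* transcript, 10.1% were also found in *CXCL1* or *CXCL3*, against 5.33% for *CXCL1* and 3.02% for *CXCL3*. Counts of these 3 genes are therefore uncertain by the handling of shared reads. *CXCL8*, *CCL2*, *CCL20*, *IL6*, *IL1B* and *LIF* shared 0 such stretches with other genes, and *CXCL5* shared 1.17% of its stretches with *GLYR1*, which lies outside the cluster. *IL6* overlaps *IL6-AS1* (37 to 88 counts per library) and *STEAP1B* (178 to 293 counts) on the opposite strand, and *LIF* overlaps *LIF-AS1* (0 to 9 counts) and *LIF-AS2* (2 to 5 counts). Which of the library kits named in the labels, 1 stranded and 1 for low input, was used for these samples and whether the counting used strand are not given in the sources used here.

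The DNA just upstream of the genes is shown because NF-kB sites there are well known control elements of several of these genes. The 250 bases before the RefSeq start (GRCh38.p14) were searched on both strands for GGNNTTTCC, a core of the NF-kB motif, chosen after the sequences had been seen. RefSeq promoters were at hand for 8 genes, that is for all but *CCL2* and *LIF*. The motif was present in 7 of the 8 (in *IL1B* these letters were not found), against 5.49% of 35116 promoters. Since the letters were chosen on these promoters, the contrast is a description and not a test. The windows of *CXCL1*, *CXCL2* and *CXCL3* are nearly alike, so their matches are not separate. The AP-1 motif TGANTCA was found in 1 of the 8 (*CXCL8*), against 6.57% of promoters, and GGCGCC, a GC-rich element bound by BMP-activated SMADs, in 0 of the 8, against 16.4%. These are matches of letters and not shown to be bound. The windows below are printed in the direction of the gene, with the 9 motif bases in capitals, and in *CCL20* the motif reads on the opposite strand.
CXCL1: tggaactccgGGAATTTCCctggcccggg
CXCL2: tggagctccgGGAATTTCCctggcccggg
CXCL3: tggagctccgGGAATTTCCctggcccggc
CXCL5: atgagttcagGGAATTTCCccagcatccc
CXCL8: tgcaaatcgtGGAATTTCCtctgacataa
CCL20: tgatcaatggGGAAAACCCcatgtggcaa
IL6: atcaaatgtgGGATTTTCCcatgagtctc

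The windows lie at chr4:73869305-73869333 on the plus strand for *CXCL1*, at chr4:74099254-74099282 on the minus strand for *CXCL2* and at chr4:74038749-74038777 on the minus strand for *CXCL3*. Those of *CXCL5* (chr4:73998749-73998777) and *CXCL8* (chr4:73740468-73740496) are on the minus and plus strands. *CCL20* (chr2:227813753-227813781) and *IL6* (chr7:22727118-22727146) are read from the plus strand. In GENCODE v44, the windows of *CXCL1*, *CXCL2* and *CXCL8* lie between genes. That of *CXCL3* falls in an exon of a longer *CXCL3* transcript and that of *CXCL5* in an exon of a long noncoding RNA. Those of *CCL20* and *IL6* fall in introns of longer transcripts of the same genes, and the *IL6* window also lies in introns of *IL6-AS1* and *STEAP1B*. *CXCL1*, *CXCL2* and *CXCL3* each have a second match nearer the start, GGGCTTTCC, beginning 53 bases before it.

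Of the 10 transcripts, 8 were expressed above the low-count filter of edgeR. *CXCL5* had 18 counts over the 12 libraries, with 0 in 4 of them, and *IL1B* had 8 counts, with 0 in 8. Both were left untested. On the length-corrected RPKM scale of the authors, WT BMP-off cells had 11.9 ± 0.883 RPKM of *LIF* and 9.22 ± 1.06 of *IL6* (SD, n = 3). *CXCL8* (2.29 ± 0.508 RPKM), *CCL2* (2.11 ± 0.0577) and *CXCL2* (1.43 ± 0.42) followed. *CCL20* stood at 1.06 ± 0.345 RPKM, *CXCL3* at 0.69 ± 0.239 and *CXCL1* at 0.543 ± 0.255. In this order, *CXCL8* and *CCL2* differed by less than the SD of *CXCL8*, *CXCL2* and *CCL20* by less than the SD of *CXCL2*, and *CXCL3* and *CXCL1* by less than either SD. *CXCL5* (0.0402 ± 0.012 RPKM) and *IL1B* (0.0185 ± 0.032) were near 0 and differed by less than the SD of *IL1B*.

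**Figure D1:**
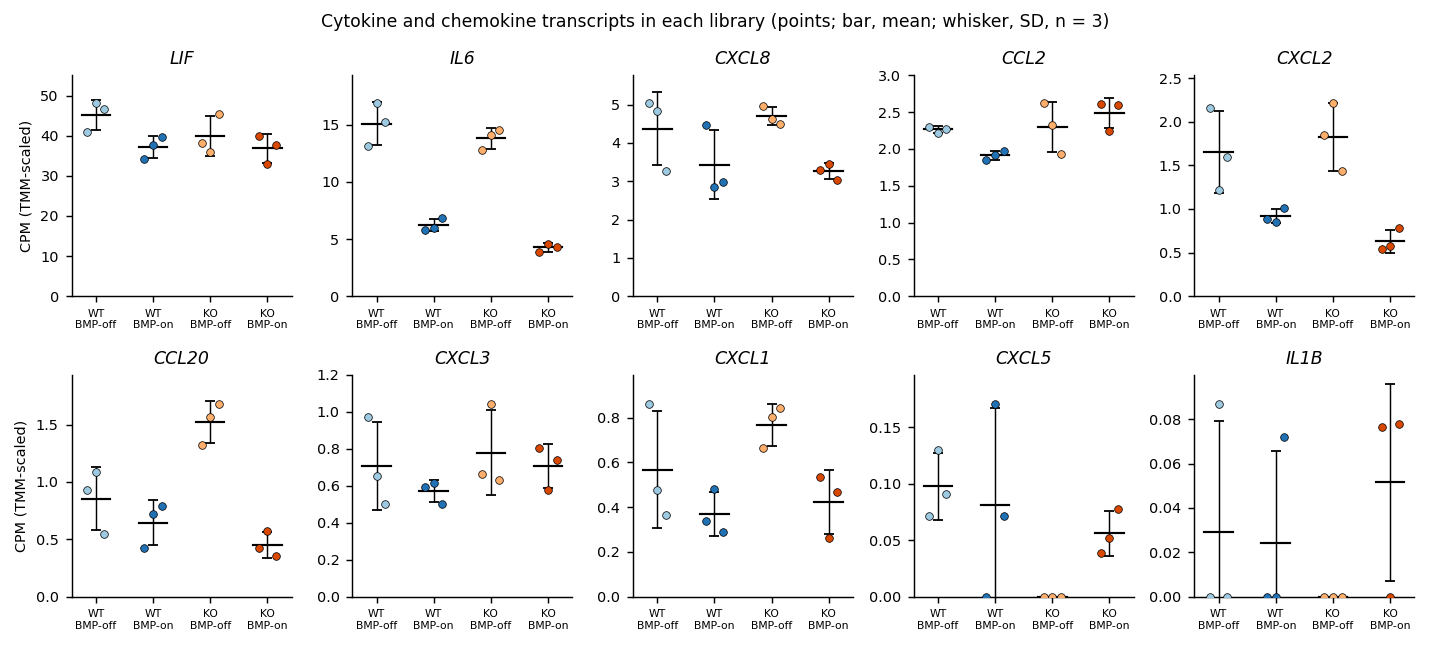
CPM (y axis, each panel with its own scale from 0) of the 10 transcripts in the 12 libraries by group (x axis). Points are libraries, bars the mean and whiskers the SD (n = 3). *IL6* separates BMP-on from BMP-off in both genotypes, *CCL20* and *CXCL2* drop in the KO BMP-on libraries, and *CXCL5* and *IL1B* reach at most 0.171 and 0.087 CPM.

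*IL6*, a cytokine of acute inflammation, fell with BMP in both genotypes. In WT cells it measured 13.2, 16.9 and 15.3 CPM in the BMP-off libraries and 5.82, 5.99 and 6.83 CPM with BMP-on. In KO cells it measured 12.8, 14.1 and 14.5 CPM with BMP-off and 3.87, 4.60 and 4.35 CPM with BMP-on. The BMP-on libraries of each genotype were all below the BMP-off libraries, and the KO BMP-on libraries were all below the WT BMP-on libraries. With BMP, *IL6* fell to 41.3% of its BMP-off level in WT cells (log2 fold change -1.28, SE 0.108, edgeR adjusted p = 2.25e-06) and to 30.8% in KO cells (-1.70, SE 0.116, edgeR adjusted p = 6.63e-08). Both calls held under 25 of 25 alternative settings.

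Between genotypes, *IL6* was lower in the KO BMP-on than in the WT BMP-on group (log2 fold change -0.55, SE 0.125, edgeR adjusted p = 0.0188). This call held in 21 of 25 alternatives and was lost without WT BMP-on replicate 3 (-0.48, adjusted p = 0.101) and when KO BMP-on replicate 1 (-0.48, 0.104) or 3 (-0.57, 0.0539) was left out. With BMP-off the difference was -0.13 (edgeR adjusted p = 0.662, 95% interval -0.34 to 0.09). The difference between the BMP responses of KO and WT cells was -0.42 (SE 0.16, edgeR unadjusted p = 0.0183, adjusted p = 0.359, 95% interval -0.76 to -0.08), which did not pass the threshold.

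*LIF*, the other cytokine acting through *IL6ST*, had the highest RPKM of the set and passed no test. WT cells had 41.0, 48.0 and 46.6 CPM with BMP-off and 34.1, 37.6 and 39.6 CPM with BMP-on. KO cells had 38.1, 36.0 and 45.5 CPM with BMP-off and 39.9, 33.0 and 37.7 CPM with BMP-on. Only the WT groups did not overlap. The BMP response of *LIF* was -0.28 in WT cells (SE 0.0946, edgeR adjusted p = 0.132) and -0.11 in KO cells (SE 0.0955, edgeR adjusted p = 0.447). Neither passed the threshold, and the difference between them was 0.17 (edgeR adjusted p = 0.639, 95% interval -0.12 to 0.46). With a correction for GC content, *LIF* passed in both WT (-0.33, adjusted p = 0.000827) and KO cells (-0.28, adjusted p = 0.00172). In WT cells it also passed without KO BMP-off replicate 2 (-0.28, adjusted p = 0.0424) or 3 (-0.28, 0.0394), which enter through the shared estimate of the spread.

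*CXCL2*, a neutrophil chemokine, fell with BMP in KO cells. Counts were 53, 55 and 34 with BMP-off and 14, 11 and 20 with BMP-on, which is 1.85, 2.21 and 1.43 CPM against 0.537, 0.575 and 0.777 CPM. In WT cells there were 60, 28 and 35 counts with BMP-off and 21, 25 and 28 with BMP-on, or 2.16, 1.22 and 1.59 CPM against 0.886, 0.855 and 1.01 CPM. BMP-on libraries lay below BMP-off libraries in both genotypes on the CPM scale. The log2 fold change was -1.53 in KO cells (SE 0.263, edgeR adjusted p = 0.000567), called in 25 of 25 alternatives. In WT cells it was -0.87 (SE 0.243, edgeR adjusted p = 0.0575), just outside the threshold, and alternatives gave adjusted p values from 0.0143 to 0.281. It passed when WT BMP-off replicate 2 (-1.05, adjusted p = 0.032), KO BMP-off replicate 2 (-0.87, 0.0286) or KO BMP-off replicate 3 (-0.87, 0.0384) was left out. The KO response minus the WT response was -0.66 (edgeR adjusted p = 0.528, 95% interval -1.44 to 0.12).

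*CCL20* also fell with BMP in KO cells. Counts were 38, 39 and 40 with BMP-off and 11, 11 and 9 with BMP-on (1.33, 1.57 and 1.68 CPM against 0.422, 0.575 and 0.350 CPM). In WT cells they were 26, 25 and 12 with BMP-off and 10, 21 and 22 with BMP-on (0.934, 1.09 and 0.546 CPM against 0.422, 0.718 and 0.790 CPM). The KO groups were far apart, while the WT groups overlapped. The log2 fold change was -1.78 in KO cells (SE 0.295, edgeR adjusted p = 0.000405), called in the 24 of 24 alternatives that tested it, and -0.40 in WT cells (SE 0.295, edgeR adjusted p = 0.583). With BMP-off the KO libraries were all above the WT libraries, by 0.81 (SE 0.255, edgeR unadjusted p = 0.00585, adjusted p = 0.366). The difference between responses was -1.38 (SE 0.427, edgeR unadjusted p = 0.00516, adjusted p = 0.25, 95% interval -2.29 to -0.48). Neither passed after adjustment over all genes. On log2(RPKM + 1) values the KO response was smaller for *CCL20* (-0.91) and *CXCL2* (-0.75), since the pseudocount weighs on low values.

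*CXCL8*, which encodes interleukin 8, was lower with BMP in KO cells by a smaller margin. KO cells had 4.96, 4.62 and 4.50 CPM with BMP-off and 3.30, 3.45 and 3.03 CPM with BMP-on, with no overlap. WT cells had 5.03, 4.83 and 3.27 CPM with BMP-off and 4.47, 2.84 and 2.98 CPM with BMP-on, with overlap. The log2 fold change was -0.53 in KO cells (SE 0.179, edgeR adjusted p = 0.0429) and -0.38 in WT cells (SE 0.177, edgeR adjusted p = 0.324). The KO call held in 15 of 25 alternatives. It was lost without KO BMP-off replicate 1 (adjusted p = 0.116) or 2 (0.0565), or when KO BMP-on replicate 1 (0.0996), 2 (0.0733) or 3 (0.116) was left out.

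The remaining chemokines passed no test. *CXCL1* had 5 to 24 counts per library and a KO response of -0.81 (SE 0.347, edgeR adjusted p = 0.106), with BMP-on libraries of 0.537, 0.261 and 0.466 CPM below BMP-off libraries of 0.663, 0.803 and 0.841 CPM. Its WT groups overlapped (-0.65, edgeR adjusted p = 0.445). *CXCL3*, the close relative of *CXCL1* and *CXCL2*, had 11 to 27 counts per library and responses of -0.34 in WT cells (edgeR adjusted p = 0.655) and -0.12 in KO cells (edgeR adjusted p = 0.815). Its groups overlapped in both genotypes. *CCL2* lay between 1.86 and 2.62 CPM in all libraries, with responses of -0.24 in WT cells (edgeR adjusted p = 0.51) and 0.12 in KO cells (edgeR adjusted p = 0.624). With BMP-on its KO libraries (2.61, 2.25 and 2.60 CPM) were all above its WT libraries (1.86, 1.92 and 1.98 CPM), a difference of 0.38 (SE 0.148, edgeR adjusted p = 0.228).

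The untested *CXCL5* gave 2, 3 and 2 counts in WT BMP-off libraries, 0, 5 and 2 with BMP-on, 0 in each KO BMP-off library and 1, 1 and 2 in KO BMP-on libraries. The limit that a count of 0 allows, 3 counts over the 3 libraries, is 0.0388 CPM in KO BMP-off cells. *IL1B* gave 0, 2 and 0 counts in WT BMP-off libraries, 0, 0 and 2 with BMP-on, 0 in each KO BMP-off library and 2, 0 and 2 in KO BMP-on libraries. Changes of *IL1B* were not detectable at this depth. Of the inflammasome genes that process its protein, *CASP1* had 28 counts in all, *PYCARD* 5 and *NLRP3* 1, while *GSDMD*, the pore former cleaved by the same protease, had 17.2 CPM on average.

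**Figure D2:**
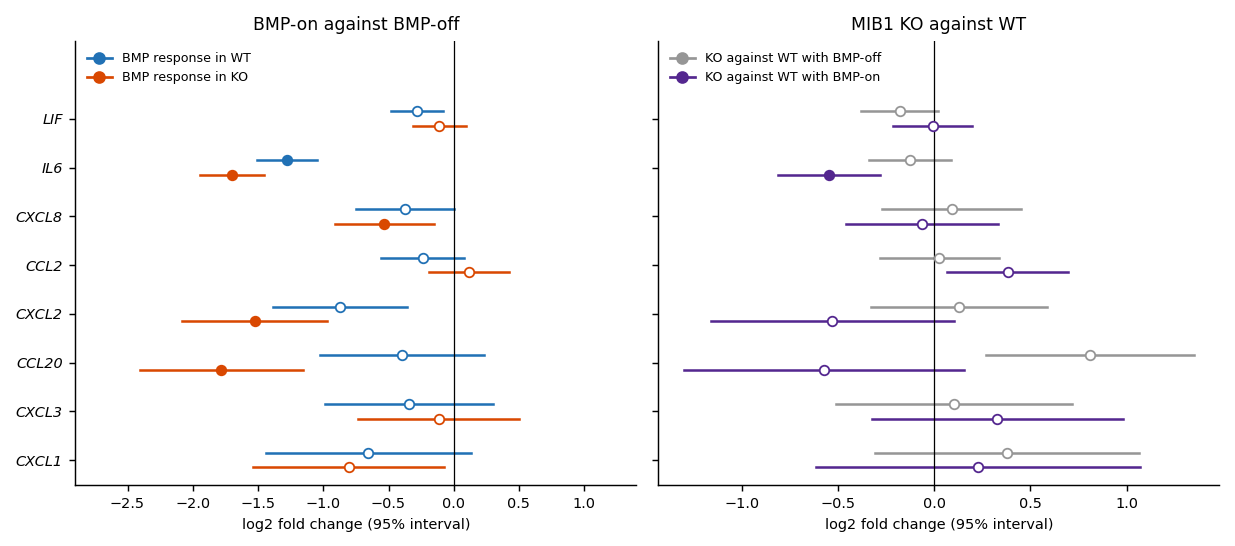
Log2 fold change (x axis) of the 8 tested transcripts with its 95% interval, for the BMP response of both genotypes (left) and for the KO and WT genotypes compared under each condition (right). Filled points have an adjusted p of at most 0.05, and in the left panel *IL6* is filled for both genotypes, and *CXCL8*, *CXCL2* and *CCL20* for KO cells.

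Counted over the 8 tested genes, 1 was lower with BMP in WT cells (*IL6*), where 2.01% of all 17188 tested genes were lower, and 0 were higher, against 1.91% of all genes. That 1 also passed a log2 fold change of 1 in size, which 0.425% of all genes did with the adjusted p. In KO cells 4 were lower (*CXCL2*, *CXCL8*, *CCL20* and *IL6*), against 10.9% of all genes, and 0 were higher, against 11.1%. Of these, 3 also passed the fold threshold, against 1.66% of all genes. By DESeq2 and by limma-voom, 1 passed in WT cells and 4 in KO cells. Groups did not overlap, with BMP-on lower, for 4 genes in WT cells (*CXCL2*, *CCL2*, *IL6* and *LIF*), against 12.7% of all genes, and for 5 in KO cells (*CXCL1*, *CXCL2*, *CXCL8*, *CCL20* and *IL6*), against 17.8%. The median log2 fold change was -0.39 in WT cells and -0.67 in KO cells, beside 0.0016 and 0.0056 over all genes. With each library left out, between 1 and 3 genes passed in WT cells and between 3 and 4 in KO cells. Without the 3 libraries of the strongest GC trend, 2 passed in WT cells (*LIF* and *IL6*) and 3 in KO cells (*CXCL2*, *CCL20* and *IL6*). The shares of all genes in these refits are not given, so their counts are not read as a result about the set.

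Comparing KO and WT cells under BMP-on, 1 gene was lower in KO (*IL6*), against 2.34% of all genes, and 0 were higher, against 1.32%. Without WT BMP-on replicate 3, or KO BMP-on replicate 1 or 3, that count was 0. Both thresholds were passed by 0 genes, which 0.14% of all genes did. With BMP-off, 0 passed in either direction by edgeR, against 0.0407% of all genes. There 1 had an unadjusted p under 0.05 (*CCL20*), and DESeq2 and limma-voom gave 0. For the difference between the BMP responses, 0 passed by edgeR, against 0.0931% of all genes, 2 had an unadjusted p under 0.05 (*CCL20* and *IL6*), and DESeq2 and limma-voom gave 0. A response that passed in KO cells and not in WT cells is thus not shown to differ between them. These comparisons share groups, since each of the 4 groups enters more than 1 of them.

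The receptors of these ligands were divided. Of 13 receptor and antagonist genes, 7 passed the low-count filter. *CXCR2*, the receptor of the CXC chemokines, *CCR6*, the receptor of *CCL20*, and *ACKR1* had 0 counts in every library, and *CXCR1*, *CCR2* and *IL1RN* had 1 count each in all. Of the interleukin 1 receptor genes, *IL1R1* averaged 96.5 CPM over the libraries, *IL1RAP* 37.5 CPM and *IL1R2* 2.89 CPM. The *IL6* and *LIF* receptor chains were also abundant. *IL6R*, which binds interleukin 6, measured 56.5, 50.1 and 45.1 CPM in WT BMP-off libraries, 40.8, 41.1 and 40.2 with BMP-on, 61.1, 55.2 and 54.3 in KO BMP-off libraries and 35.1, 34.0 and 34.7 with BMP-on. BMP-on libraries were lower than BMP-off libraries in each genotype. *IL6R* fell by 0.32 on the log2 scale in WT cells (SE 0.0721, edgeR adjusted p = 0.0184) and by 0.72 in KO cells (SE 0.0729, edgeR adjusted p = 3.13e-06). The KO call held in 25 of 25 alternatives and the WT call in 17, and the difference between them was -0.40 (edgeR adjusted p = 0.137). That difference passed in 6 of 24 alternatives. Among these were DESeq2 (-0.40, adjusted p = 0.0488), no filter (-0.40, 0.00708) and GC correction (-0.42, 0.0265). The others left out WT BMP-off replicate 1 (-0.50, adjusted p = 0.0176), KO BMP-off replicate 3 (-0.45, 0.049) or the 3 libraries of the largest GC trend (-0.59, 0.000907). The WT call was lost without WT BMP-off replicate 1 (-0.22, adjusted p = 0.0991) or 2 (-0.32, 0.0555), and without WT BMP-on replicate 1 (-0.32, 0.078), 2 (-0.33, 0.0659) or 3 (-0.30, 0.0881).

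*LIFR*, the specific chain of the *LIF* receptor, fell in KO cells from 142 ± 8.81 to 110.2 ± 2.98 CPM (SD, n = 3; log2 fold change -0.37, edgeR adjusted p = 0.000964). *IL6ST*, the shared signaling chain, fell there from 454 ± 43.3 to 368 ± 16.6 CPM (-0.31, edgeR adjusted p = 0.00395). *OSMR*, which pairs with that chain for oncostatin M, fell from 518 ± 21.5 to 424 ± 3.05 CPM (-0.29, edgeR adjusted p = 0.000412). These 3 calls held in 25 of 25 alternatives. In all, 1 of 7 tested receptor genes was lower in WT cells, against 2.01% of all genes, and 3 in KO cells, against 10.9%. In WT and KO cells 0 were higher, against 1.91% and 11.1% of all genes, and the medians were -0.11 and -0.15.

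**Figure D3:**
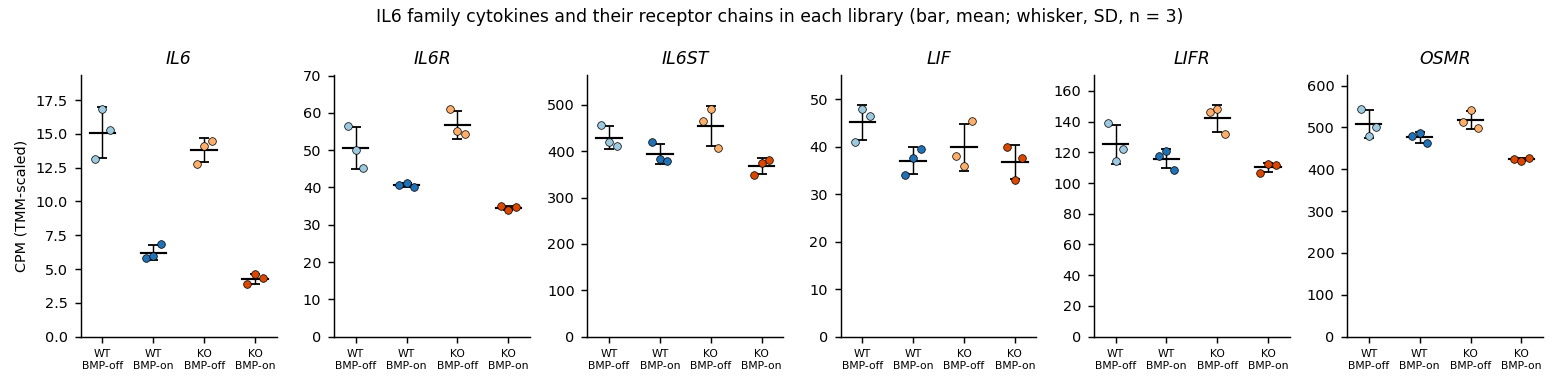
CPM (y axis, from 0) of *IL6*, *LIF* and the receptor chains *IL6R*, *IL6ST*, *LIFR* and *OSMR* in each library by group (x axis). Points are libraries, bars the mean and whiskers the SD (n = 3), and the 3 KO BMP-on libraries lie below the 3 KO BMP-off libraries for *IL6* and for all 4 receptor chains.

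Downstream of these receptors, 8 of 9 listed JAK-STAT3 genes were tested. In WT cells 0 passed, where 2.01% of all genes were lower and 1.91% higher. In KO cells, where 10.9% of all genes were lower and 11.1% higher, 2 were lower, among them *OSMR* (above), and 1 was higher. The latter was *SOCS3*, a feedback inhibitor induced by STAT3 (0.20, edgeR adjusted p = 0.0294), which held in 15 of 25 alternatives and had the opposite sign after GC correction (-0.08, adjusted p = 0.404). Leaving out KO BMP-off replicate 2 (0.13, adjusted p = 0.156) or KO BMP-on replicate 1 (0.18, 0.111) or 2 (0.18, 0.0945) also removed the *SOCS3* call. *TYK2*, a Janus kinase gene, was also higher in KO cells in 5 of 25 alternatives. Among these were DESeq2 (0.27, adjusted p = 0.0475), limma-voom (0.29, 0.0426) and the fit without KO BMP-off replicate 3 (0.43, 0.000259). *STAT3* itself had 270.0 CPM on average and responses of -0.05 in WT cells (edgeR adjusted p = 0.627) and -0.08 in KO cells (edgeR adjusted p = 0.203). After GC correction, *STAT3* (-0.10, adjusted p = 0.0392) and *PIM1* (-0.28, 0.000431) were lower in KO cells.

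All 15 listed NF-kB subunits, kinases and inhibitors were tested. With BMP, 1 was lower in WT cells and 0 higher (median -0.08), against 2.01% and 1.91% of all genes. In KO cells 5 were lower and 1 higher (median -0.13), against 10.9% and 11.1% of all genes. *NFKB2*, the precursor of the p52 subunit, was lower in WT cells (-0.41, edgeR adjusted p = 0.016) and in KO cells (-0.36, edgeR adjusted p = 0.00965). Its WT call was lost without WT BMP-off replicate 2 (-0.37, adjusted p = 0.087) or WT BMP-on replicate 1 (-0.39, 0.056). In KO cells the subunit genes *REL* (-0.30, edgeR adjusted p = 0.00711) and *NFKB1* (-0.27, edgeR adjusted p = 0.00166) and the inhibitor gene *NFKBIA* (-0.25, edgeR adjusted p = 0.00294) were also lower. *NFKB1*, *NFKB2*, *REL* and *NFKBIA* kept these KO calls in 25 of 25 alternatives. With single libraries left out, 0 to 3 were lower in WT cells, and in KO cells 4 to 6 were lower and 0 to 3 higher. The WT count of 3 came without KO BMP-off replicate 2, where *NFKBIA* (-0.18, adjusted p = 0.0333) and *TNIP1* (-0.18, 0.0452) were added, and the KO count of 3 higher came without KO BMP-off replicate 3 (*RELA*, *IKBKG* and *NFKBIB*). In KO cells the fifth was *TNIP1* (-0.21, edgeR adjusted p = 0.0187), lost without KO BMP-off replicate 1 (adjusted p = 0.0643) or KO BMP-on replicate 3 (0.0743). After GC correction, *RELB* (-0.63, adjusted p = 0.000507) and *BCL3* (-0.525, 3.57e-05) were also lower in KO cells. The same correction made *BCL3* (-0.33, adjusted p = 0.00902), *NFKBIA* (-0.19, 0.00671) and *TNIP1* (-0.24, 0.00208) lower in WT cells.

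*TNFAIP3*, an NF-kB-induced inhibitor of the pathway, was higher with BMP in KO cells (0.19, edgeR adjusted p = 0.0436), but was called in 3 of 25 alternatives and in 0 of the 12 with a library left out, with adjusted p values from 0.0557 to 0.175 among those. Under BMP-on it was also higher in KO than WT (0.27, edgeR adjusted p = 0.0266). It was the 1 gene of the 15 to differ there, where 1.32% of all genes were higher and 2.34% lower. That call was lost without WT BMP-on replicate 1 (adjusted p = 0.1) or 2 (0.17), or when KO BMP-on replicate 2 (0.142) or 3 (0.0723) was dropped.

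Among 10 other NF-kB targets, 8 were tested. Of these, 0 passed in WT cells, where 2.01% of all genes were lower. There 8 of 8 log2 fold changes were negative with a median of -0.20, beside 0.0016 over all genes. The share of negative changes over all genes was not computed. In KO cells 3 were lower, against 10.9% of all genes. With single libraries left out, 0 to 2 were lower in WT cells and 1 to 4 in KO cells. *TNFAIP2* passed in WT cells without WT BMP-off replicate 1 (-0.42, adjusted p = 0.0147), KO BMP-off replicate 2 (-0.35, 0.00485) or 3 (-0.35, 0.00702) or KO BMP-on replicate 1 (-0.35, 0.0274), and in 11 of 25 alternatives in all. *ICAM1* passed there in 5 of 25, among them the fit without KO BMP-off replicate 2 (-0.18, adjusted p = 0.0307). In KO cells *TNFAIP2* passed after GC correction (-0.52, adjusted p = 4.27e-08) and without KO BMP-off replicate 2 (-0.26, 0.0349). *IRF1* was also lower in KO cells after GC correction (-0.30, adjusted p = 0.0131). *CD83*, a surface protein of activated antigen-presenting cells, was at 11.9, 14.1 and 12.2 CPM in KO BMP-off and 7.36, 8.46 and 7.73 CPM in KO BMP-on libraries, which do not overlap (-0.70, edgeR adjusted p = 9.16e-05, called in 25 of 25 alternatives). *BIRC3*, an apoptosis inhibitor, was at -0.30 (edgeR adjusted p = 0.0157) and lost its call without KO BMP-off replicate 1 (adjusted p = 0.0596) or KO BMP-on replicate 1 (0.0733). *ICAM1*, a leukocyte adhesion receptor, was at -0.23 (edgeR adjusted p = 0.0344). It lost its call without KO BMP-off replicate 1 (adjusted p = 0.0977) or 3 (0.0616), or when KO BMP-on replicate 2 (0.0501) or 3 (0.105) was dropped.

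Of 28 further chemokines and cytokines, 13 were tested, with 0 calls in WT cells and 1 lower in KO cells, against the 2.01% and 10.9% of all genes that were lower, and medians of -0.05 and 0.05. The 1 call was *IL32*, a proinflammatory cytokine (-0.35, edgeR adjusted p = 0.0136), which was lost without KO BMP-on replicate 2 (adjusted p = 0.0516) or 3 (0.0514). *IL32* had a similar fold change in WT cells (-0.34, edgeR adjusted p = 0.0538), and passed there in 12 of 25 alternatives. Among these were the fits without WT BMP-off replicate 1 (adjusted p = 0.033), WT BMP-on replicate 2 (0.0296), KO BMP-off replicate 2 (0.0168) or 3 (0.0344) or KO BMP-on replicate 1 (0.0388). In KO cells *IL24* was also lower and *CSF1* higher without KO BMP-off replicate 3, and *IL11* was higher without KO BMP-on replicate 3. *IL24* passed in KO cells by limma-voom too (-1.01, adjusted p = 0.0392). *IL18*, the most abundant of the 28 by RPKM (59.6 on average), had responses of -0.03 in WT cells and 0.06 in KO cells (edgeR adjusted p = 0.904 and 0.614).

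Of 5 other transcription factors of cytokine genes, 0 passed in WT cells, where 2.01% of all genes were lower and 1.91% higher. In KO cells 1 was lower and 2 higher, against 10.9% and 11.1% of all genes. *ATF3* was lower (-0.29, edgeR adjusted p = 0.0046, called in 25 of 25 alternatives). In WT cells it passed in 6 of 25, among them without KO BMP-off replicate 2 (-0.22, adjusted p = 0.0315) or 3 (-0.22, 0.0389). *JUN*, an AP-1 subunit, was higher (0.35, edgeR adjusted p = 0.0238), but not without KO BMP-off replicate 2 (0.23, adjusted p = 0.127) or KO BMP-on replicate 1 (0.35, 0.0649) or 2 (0.31, 0.0804). *CEBPB*, an activator of *IL6*, was higher (0.23, edgeR adjusted p = 0.011), but was -0.25 after GC correction (adjusted p = 0.262) and lost its call without KO BMP-on replicate 3 (0.19, adjusted p = 0.0536). *CEBPD* was lower in KO cells after GC correction (-0.76, adjusted p = 5.76e-05), and passed there in 3 of 25 alternatives.

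The 9 listed RNA-binding proteins that act on AU-rich elements or stem-loops of cytokine mRNA were tested. Of them 0 passed in WT cells, where 2.01% of all genes were lower and 1.91% higher. In KO cells 1 was higher and 1 lower, close to the shares of all genes (11.1% and 10.9%). *ZFP36*, which promotes decay of such mRNA, was higher (0.36, edgeR adjusted p = 0.00743), but not after GC correction (0.18, adjusted p = 0.109). *HNRNPD*, another AU-rich element binding protein, was lower (-0.23, edgeR adjusted p = 0.0019, called in 25 of 25 alternatives). In KO cells *ELAVL1* was also lower when KO BMP-off replicate 2 (-0.16, adjusted p = 0.04) or KO BMP-on replicate 2 (-0.17, 0.0367) was left out. After GC correction, *ZFP36L1* (-0.31, adjusted p = 0.00193) and *KHSRP* (-0.18, 0.00327) were lower in KO cells.

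**Figure D4:**
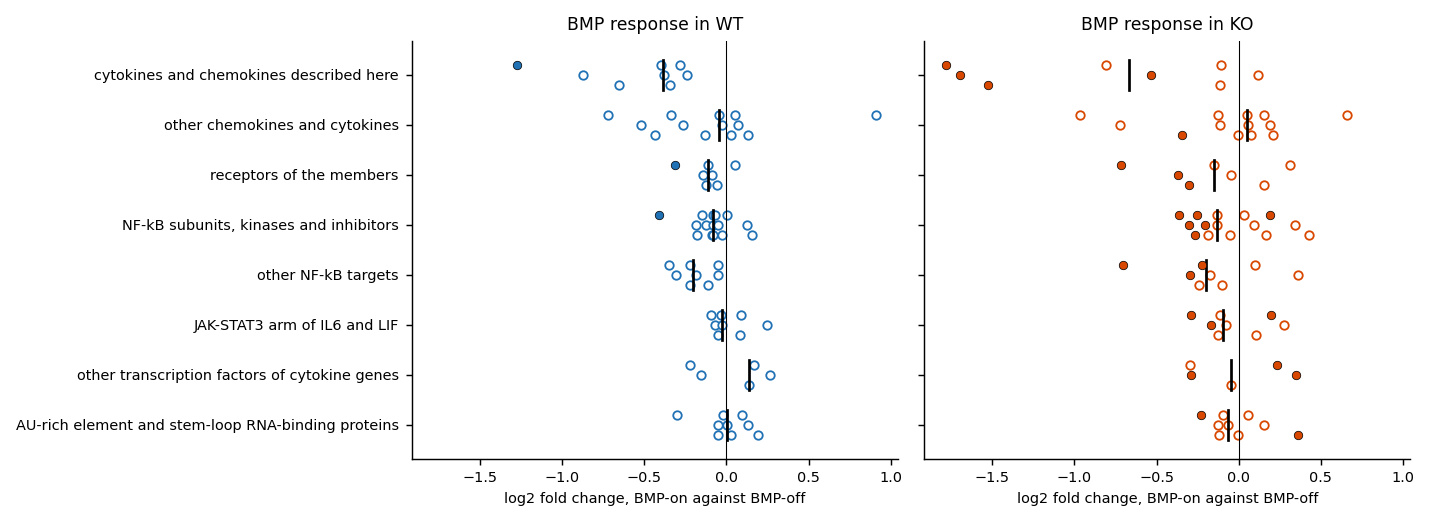
Log2 fold change with BMP (x axis) of each tested gene in 8 lists (rows), in WT cells (left) and KO cells (right). Filled points have an adjusted p of at most 0.05 and vertical bars are the list medians. The cytokines and chemokines described here reach the lowest values in both panels, -1.28 in WT cells and -1.78 in KO cells.

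Markers of cell types moved as follows. All libraries came from NCIH838 cells and no other cell type is named in the sources, so the markers are read as expression in that line. In bulk RNA, a change in some cells cannot be told apart from a change in all. Of 5 epithelial markers, 4 were tested. In WT cells 1 was lower and 0 higher, against 2.01% and 1.91% of all genes. In KO cells 1 was lower and 1 higher, against 10.9% and 11.1%. *EPCAM* was lower with BMP in WT (-0.56, edgeR adjusted p = 0.00794) and KO cells (-0.61, edgeR adjusted p = 0.00152), and *KRT8* was higher in KO cells (0.61, edgeR adjusted p = 0.00413), and in WT cells without KO BMP-off replicate 2 (0.28, adjusted p = 0.00349). *EPCAM* lost its WT call without WT BMP-on replicate 1 (adjusted p = 0.0519). Of 6 leukocyte markers, 2 were tested, and the list summed to 5.32 to 6.50 CPM in WT BMP-off, 6.33 to 7.56 in WT BMP-on, 4.50 to 6.49 in KO BMP-off and 5.94 to 8.81 in KO BMP-on libraries. *CSF1R* was the 1 called, in KO cells, where 11.1% of all genes were higher (0.88, edgeR adjusted p = 0.0278, in 15 of 25 alternatives). That call was lost without KO BMP-off replicate 1 (adjusted p = 0.078) or 2 (0.0752), or when KO BMP-on replicate 1 (0.58, 0.17) or 2 (0.0739) was dropped. *CD14*, the other tested marker, averaged 4.07 CPM over the libraries and passed no test. *PTPRC* was at 0 and *LYZ* had 4 counts in all.

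Of 6 fibroblast and endothelial markers, 5 were tested, and the list summed to 15.8 to 21.9 CPM in WT BMP-off, 30.2 to 32.0 in WT BMP-on, 13.4 to 21.7 in KO BMP-off and 35.2 to 43.3 in KO BMP-on libraries. Most of this was *COL1A1* (1.39 in KO cells, edgeR adjusted p = 0.000602), which passed in WT cells in 8 of 25 alternatives. Among these were DESeq2 (0.72, adjusted p = 0.0311), limma-voom (0.74, 0.00601) and the fits without KO BMP-off replicate 2 (0.73, 0.0452) or 3 (0.73, 0.00252). *PDGFRB* was also higher in KO cells (0.92, edgeR adjusted p = 0.0141), while *COL3A1* had 35 counts in all. *CDH5* was lower (-2.28, edgeR adjusted p = 0.0316) on 81 counts in all, and lost its call without KO BMP-off replicate 1 (-1.96, adjusted p = 0.119) or KO BMP-on replicate 1 (-1.97, 0.121) or 2 (-2.16, 0.0844). In KO cells 2 of the 5 were thus higher and 1 lower, against 11.1% and 10.9% of all genes. In WT cells 0 passed, where 1.91% of all genes were higher and 2.01% lower. In both genotypes every BMP-on sum was above every BMP-off sum, the reverse of *IL6*, and their part in the *IL6* result was not tested.

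For the 4 transcripts with a mean of at least 50 counts, the genes most alike across the 12 libraries were taken by Pearson's r of log2 CPM. The 12 libraries share their 4 groups, so these values are a description. They were not corrected for GC content, so the trends with GC content within groups may enter r. *IL6* was most like *TMEM106C* (r = 0.985) and *GFPT2* (r = 0.984). *LIF* was most like *TNFAIP2* (r = 0.973), an NF-kB target, and *SPINT1* (r = 0.945). *CXCL8* was most like *RNF115* (r = 0.92) and *ZCCHC8* (r = 0.894), and *CCL2* like *ZNF143* (r = 0.867) and *NAALAD2* (r = 0.846).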

How the data were processed

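The authors removed ribosomal reads, used GSNAP to align 50-base single-end reads (GRCh38) and HTSeqGenie for counts on RefSeq exons. The deposited counts are whole numbers without normalization. A second deposited table holds RPKM values normalized by the authors, used for levels between genes and as an alternative. Of 58302 identifiers, 57532 had a GENCODE v44 symbol, and 115 of 116 listed genes were matched (not *SOD2*). No sample column was left out. Of the listed genes that passed a test, 1 is not reported here.

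Counts were analysed with R 4.3.3 and edgeR 4.0.16: TMM scaling (factors 0.984 to 1.02), the default low-count filter (17188 genes) and a robust quasi-likelihood fit of 4 group means over 12 libraries. The 5 comparisons were BMP-on against BMP-off within each genotype, KO against WT within each BMP condition, and the KO response minus the WT response. Adjusted p values (Benjamini-Hochberg) cover all genes tested, with a threshold of 0.05, separately also with a minimum absolute log2 fold change of 1. A log2 fold change above 0 means higher in BMP-on than BMP-off, or higher in KO than WT, and the SE is on the log2 scale. All 10 transcripts are named, with at most 4 called genes a list by size of change. Genes outside that rule were named for their level or direction after their values were seen. The transcripts, lists and tests were chosen with earlier results of these data known.

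Same-numbered libraries did not deviate together: 2 of 18 pairs had a correlation above 0.1 (range -0.27 to 0.3). Replicates differed by 3.36 to 20.5 times the counting variance, so none was a copy. Alternatives were library size or upper quartile scaling, DESeq2 1.42.0, limma 3.58.1 (voom, quantile normalization), no filter, at least 10 counts in every library, only the groups compared, a replicate block, GC correction, log2(RPKM + 1), log2(RPKM + 0.1), log2(RPKM + 1) without a filter, each library left out, and, chosen after seeing the data, leaving out the 3 libraries with the largest GC trend. Shares of all genes beside the counts come from the edgeR fit over 12 libraries, and those of the alternatives are not given. The procedure was tested on simulated data. Intervals are 95% and limits for a count of 0 cover counting error only. Per the labels, libraries were made with a Truseq Stranded mRNA kit for regular input or the Smart-Seq V4 and Nextera XT kits for low input. Which was used here is not given in the sources used here.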

Additional observations from a re-analysis of the deposited data

How the results depend on the processing

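For the 8 tested transcripts of the set and their counts of calls, over all 5 comparisons, 1046 recomputed values kept their direction and side of the threshold, 22 turned sign (none of them past the threshold), 13 gained and 14 lost a call, and 11 counts moved by more than 1.5 times. The cause of these changes was not tested. In WT cells, 3 genes passed instead of 1 without a filter, with only the groups compared and after GC correction, and 2 without the 3 libraries of the largest GC trend. The shares of all genes that passed in these fits are not given, so these counts are not read as a result about the set. The added genes were *CXCL2* (-0.87 without a filter, -0.87 with only the groups compared, -0.85 after GC correction) and *LIF* (-0.28, -0.28 and -0.33, and -0.35 without the 3 libraries). With single libraries left out, 1 to 3 genes passed, *CXCL2* ranged from -1.05 to -0.60 and *LIF* from -0.34 to -0.23. In KO cells, *CXCL8* lost its call after GC correction (-0.41), on log2(RPKM + 1) (-0.38, also without a filter), on log2(RPKM + 0.1) (-0.54) and without the 3 libraries (-0.61), and ranged from -0.57 to -0.49 with single libraries left out. *LIF* gained one after GC correction (-0.28). Without the 3 libraries, the KO responses of *CXCL3* (0.11) and *CCL2* (-0.0634) turned sign. With single libraries left out these ranged from -0.25 to 0.14 and from -0.00025 to 0.22.

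In KO against WT with BMP-on, 0 genes passed on log2(RPKM + 1) without a filter (*IL6* -0.41) and 0 to 1 with single libraries left out (*IL6* -0.60 to -0.48). *CXCL8* turned to 0.0104 after GC correction and ranged from -0.19 to 0.16, and *LIF* turned to 0.0161 with library size scaling and ranged from -0.0711 to 0.0594. With BMP-off, *CXCL2* ranged from -0.0492 to 0.40, *CXCL3* from -0.16 to 0.44, *CXCL8* from -0.0688 to 0.22 and *CCL2* from -0.0796 to 0.14 with single libraries left out. The difference between responses then ranged from -0.64 to 0.093 for *CXCL1*, from -0.11 to 0.49 for *CXCL3* and from -0.29 to 0.0592 for *CXCL8*.

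With a replicate block, the counts stayed at 1 in WT cells, 4 in KO cells, 1 and 0 in KO against WT under BMP-on and BMP-off, and 0 for the KO response minus the WT response, and *IL6* stayed at -1.28 in WT and -1.70 in KO cells. The block changed no call among the 10 transcripts. Among the listed genes, *TNFAIP3* (adjusted p = 0.071 in the KO response and 0.0622 in KO against WT under BMP-on) and *ICAM1* (0.0585) lost calls under it. The correlations of same-numbered libraries gave little sign of pairing. They cannot exclude it, since the labels do not say how the replicates were made. At 8 to 27 counts per WT library, changes of *CXCL1*, *CXCL3* and *CCL20* in WT cells have intervals wider than 1 log2 unit.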
